A study of Homo sapiens with 6 samples.

Results

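The genes described here are 9 surface antigens of epithelial tumours, taken from the 20036 genes of the deposited table by symbol: 4 carcinoembryonic antigen-related cell adhesion molecules (CEACAM1, CEACAM5, CEACAM6 and CEACAM7), 4 membrane-spanning mucins (MUC1, MUC4, MUC13 and MUC16) and mesothelin (MSLN). They were selected on the read counts of CEACAM6, which was nearly silent in control libraries and present in knockdown libraries, so the comparison of the groups chose them. Their fold changes in that comparison are a description. No p is given for them, and where the fit over all genes called them, the count stands beside the share of all genes called and supports nothing. The samples were bulk RNA-seq libraries of the human cell line PANC-1, established from a pancreatic carcinoma, 3 from cells that received a null control virus and 3 from cells that received a lentivirus that knocks down SHMT2. SHMT2 is the mitochondrial enzyme that splits serine into glycine and a one-carbon unit carried by folate. Cell line and library kit were the same in all 6 libraries. The labels used here name no shRNA sequence, no clone and no time after infection, and do not say whether replicates were separate cultures, so a p-value here rests on library-to-library spread alone, and that spread could be technical.

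CEACAM proteins are members of the immunoglobulin superfamily that bind each other at the cell surface, and some of them bind bacteria. CEACAM1 crosses the membrane and carries an inhibitory signalling motif in its tail, whereas CEACAM5 (the carcinoembryonic antigen measured in serum), CEACAM6 and CEACAM7 are held in the outer leaflet by a glycosylphosphatidylinositol (GPI) anchor. Membrane mucins have long extracellular stretches of serine and threonine that are densely O-glycosylated, and in pancreatic ducts they form a protective layer, which carcinomas often produce in excess. Mesothelin is another GPI-anchored protein and binds MUC16.

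Library totals ran from 15405884 to 19075734 counts. The targeted gene gave 2113, 2284 and 2417 SHMT2 counts with control virus and 139, 56 and 101 with the knockdown virus (replicates 1, 2 and 3), which left 3.55% of its control mean after scaling. One library of each group differed from its fellows: control replicate 1 and knockdown replicate 2. Per tested gene, the chi-square between libraries of a group was 2.06 and 2.46 without those libraries and 25.4 to 76.5 with either. Knockdown replicate 2 had 10.4% of its counts in mitochondrially encoded genes, against 4.72% to 6.86% in the others. The cells carried some epithelial keratins together with a mesenchymal marker. KRT8 and KRT18, keratins of simple epithelia, stood at 946 ± 101 and 421 ± 99.8 CPM (counts scaled to a common library total with TMM factors, mean ± SD, n = 3) in controls, the mesenchymal filament gene VIM at 2343 ± 315 CPM, and the duct chloride channel CFTR had no count in any library. The duct keratins KRT7 and KRT19 were low in controls, at 1.09 ± 0.195 and 0.152 ± 0.137 CPM. So was the epithelial cadherin CDH1, at 0.937 ± 0.455 CPM.

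The starts of the 4 CEACAM genes show how close these family members are, and their sequences are printed because these related genes differed widely in read counts. RefSeq promoter sequences (GRCh38.p14) were found for 8 of the 9 genes, all but MSLN. Over the 250 bases before the RefSeq start, CEACAM6 was identical to CEACAM7 at 80.2%, to CEACAM5 at 78.5% and to CEACAM1 at 74.4% of aligned bases. The stretch from 60 to 31 bases before the start is given for each gene, with the E-box CACGTG in capitals.
CEACAM6: accgcacccatgaccCACGTGaccctggga
CEACAM5: ccacacccatgaccCACGTGatgctgagaa
CEACAM7: gaccccacccctggaccatgtgatcttgga
CEACAM1: gacaaaccccgccccagcacacatgatcag
These lie at chr19:41755470-41755499 (plus strand), chr19:41708566-41708595 (plus), chr19:41688301-41688330 (minus) and chr19:42528512-42528541 (minus). Parts of the CEACAM5, CEACAM6 and CEACAM7 stretches (11, 30 and 30 bases) are exon in a longer GENCODE 29 transcript of the same gene.

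The E-box, searched on both strands, occurred in the 250 bases before the start in 6.34% of 35116 RefSeq promoters and, among the 8 genes, in CEACAM5 and CEACAM6. The interferon response element core, GAAA followed by any 2 bases and GAAA again, occurred in 3.02% of promoters and in CEACAM1 alone of the 8. The CEACAM1 match is in capitals in the stretch from 130 to 101 bases before its start (chr19:42528582-42528611, minus).
CEACAM1 upstream: atgtagacagaaagGAAAGAGAAAgtaagg
MUC1, the mucin with the most reads, has 4 matches to the GC box GGGCGG (42.6% of promoters hold at least 1) in its promoter and a TATAAA sequence (10.7%). Both are in capitals in its last 100 bases before the start (chr1:155192916-155193015, minus), and 3 of the GC boxes overlap. GGGCGG occurs once each in CEACAM1, CEACAM6, MUC4 and 1 of 2 RefSeq promoters of MUC16 as well, and TATAAA once in CEACAM6.
MUC1: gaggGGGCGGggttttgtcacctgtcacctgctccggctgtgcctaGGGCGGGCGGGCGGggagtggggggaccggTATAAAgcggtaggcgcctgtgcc
TTCNNNGAA, the gamma-activated site, was found in 6.57% of promoters and among the 8 genes in MUC4. A match of letters is a description and shows no binding.

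CEACAM6 (ENSG00000086548, chromosome 19, 41750977 to 41772211, plus strand), an adhesion molecule often abundant on pancreatic and colonic carcinomas, gave counts of 0, 0 and 1 over the controls (replicates 1, 2 and 3 in order, here and in what follows). With knockdown virus the counts were 126, 114 and 83. Every knockdown library was far above every control library, and the groups did not overlap. In CPM the level was 0.0211 ± 0.0365 in controls and 5.84 ± 1.38 in knockdown libraries (SD, n = 3 per group). The ratio of summed counts, scaled for library size, was 270 with a 95% exact interval from 48.1 to 10700, which covers counting error only. The fitted log2 fold change was 7.66 (SE 0.55, worked back from the F statistic of the test). That SE is narrow beside the exact interval and should not be read as the precision of the fold. The size of the fold change rests on 1 control count. It was 9.66 without control replicate 3 and 7.07 with both differing libraries (control replicate 1, knockdown replicate 2) left out. In bulk RNA, a rise in the number of cells that express the gene and a rise in RNA per cell cannot be told apart.

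**Figure D1:**
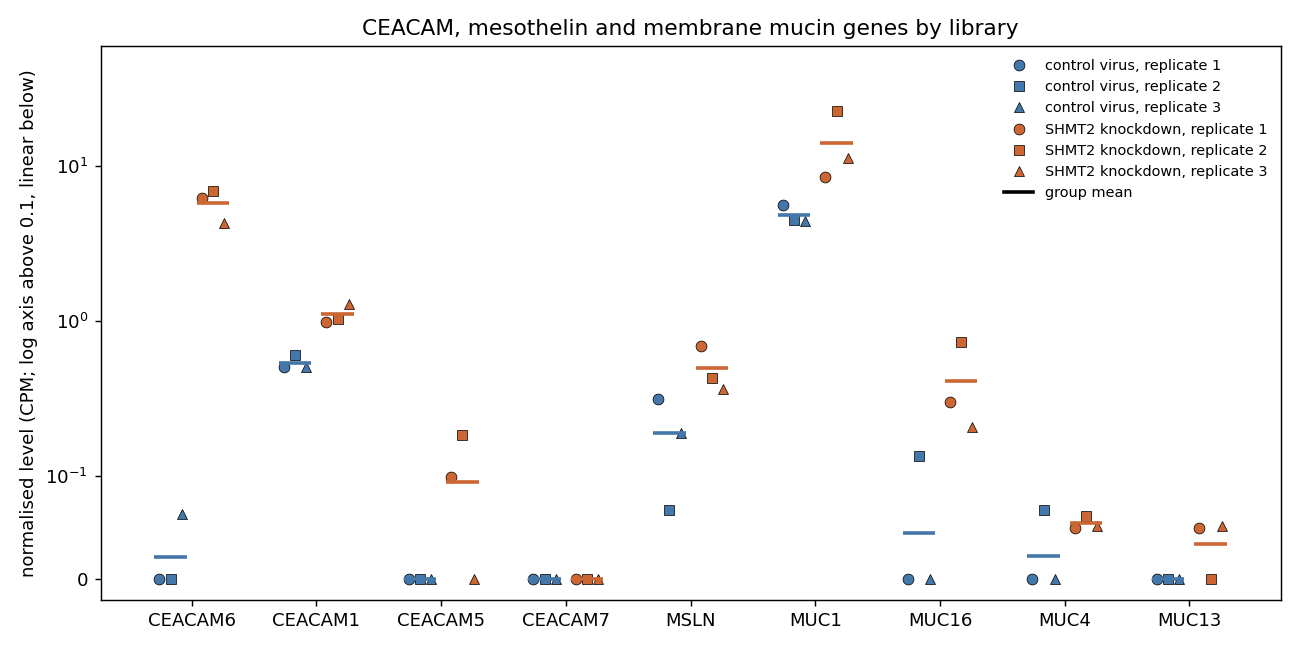
Normalised level (CPM, log axis above 0.1 and linear below) of the 9 genes in each library, with points for libraries and bars for group means. CEACAM6 moves from 0 or near 0 to between 4.3 and 6.96 CPM, MUC1 is the most abundant in both groups, and CEACAM7 lies at 0 throughout.

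The other CEACAM genes gave few reads. CEACAM1 (ENSG00000079385, chromosome 19, 42507304 to 42561234, minus strand) had 8, 9 and 8 counts in controls and 20, 17 and 25 after knockdown. All 3 knockdown libraries lay above all 3 controls, at 1.11 ± 0.162 against 0.537 ± 0.0556 CPM (SD, n = 3), and the log2 fold change was 1.04 (SE 0.28). Its span overlaps the antisense gene LIPE-AS1, and no strand setting of the counting is given here, so a share of its reads could belong there. CEACAM5 (ENSG00000105388, 41708585 to 41730433, plus strand) had no count in controls and 2, 3 and 0 after knockdown. The groups overlapped at 0, and at this depth no fold is given. CEACAM7 (ENSG00000007306, 41673303 to 41706976, minus strand) had 0 counts in all 6 libraries, which allows up to 0.149 to 0.2 CPM per library.

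Among the 4 CEACAM genes of the set, CEACAM6 made up most of the reads after knockdown. Its share of the counts of CEACAM1, CEACAM5, CEACAM6 and CEACAM7 was 85.1% (95% exact binomial interval 78.4% to 90.4%), 85.1% (77.9% to 90.6%) and 76.9% (67.8% to 84.4%) in knockdown replicates 1, 2 and 3. In controls it was 0 of 8, 0 of 9 and 1 of 9 counts. These shares leave out CEACAM19, a more distant family member with 79, 87 and 87 counts in controls and 72, 69 and 56 after knockdown. Reads of close paralogs can be misassigned, and how the aligner treated shared reads is not stated. Of 3003 distinct 50-base words in CEACAM6 transcripts of GENCODE 29, 6.99% also occur in a transcript of another gene. CEACAM5 shares 19% of its own words, most of them with a read-through gene across CEACAM5 and CEACAM6 that has 0 counts in the table, so its low counts are the more uncertain.

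Around CEACAM6, 2 of 10 genes had enough reads for the test, and neither was called higher. Leaving the other CEACAM genes of the set aside, the table lists CEACAM21, CEACAM4 and a gene without a symbol as the nearest 3 genes before it and CEACAM3, LYPD4 and DMRTC2 as the nearest 3 after it, and all 6 had 0 counts in every library. CEACAM3, a receptor of granulocytes for bacteria, starts 45610 bases downstream. Farther out, DMAC2, an assembly factor of a respiratory complex, fell from 503, 618 and 676 counts to 499, 346 and 483 (log2 fold change -0.70, adjusted p = 0.00455, edgeR quasi-likelihood test). RPS19, a ribosomal protein gene 109278 bases downstream, changed by -0.49 with no call (adjusted p = 0.344, edgeR). Its counts were 2502, 4140 and 4444 in controls and 4099, 1184 and 4485 after knockdown, lowest in knockdown replicate 2.

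**Figure D2:**
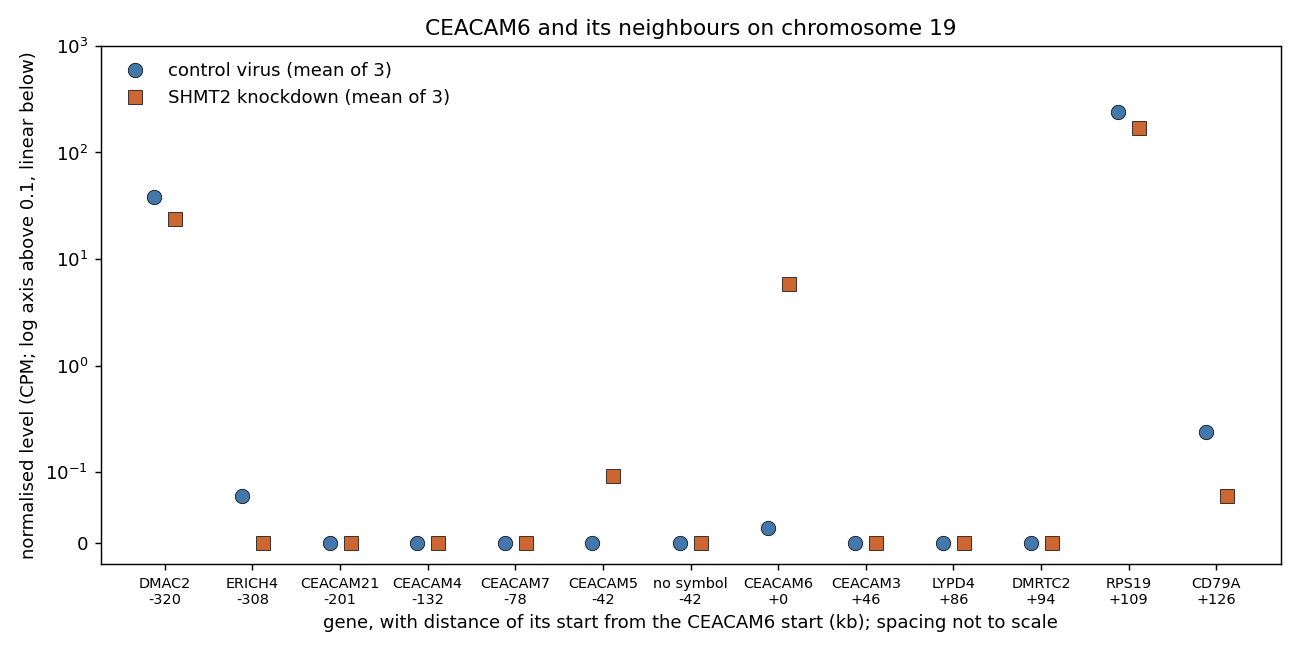
Mean CPM (n = 3 per group, log axis above 0.1 and linear below) of CEACAM6 and the genes around it, in chromosomal order, with the distance of each start from that of CEACAM6 in kb. CEACAM6 is at 5.84 CPM in knockdown libraries, while the nearest 3 other genes on each side that are no antigens of the set are at 0 in both groups.

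Mesothelin (MSLN, ENSG00000102854, chromosome 16, 760734 to 768865, plus strand) had 5, 1 and 3 counts in controls and 14, 7 and 7 after knockdown. The groups did not overlap, although the highest control (0.315 CPM) lay close to the lowest knockdown library (0.362 CPM). The scaled ratio of summed counts was 2.6 (95% exact interval 1.19 to 6.27, counting error only, without the spread between libraries). MSLN had too few reads for the edgeR test and was not called when low counts were left unfiltered. Of 9 tested neighbours of MSLN 4 were called lower and 1 higher, where 25.1% of all tested genes were called lower and 26.7% higher. RPUSD1 fell most clearly (log2 fold change -0.69, adjusted p = 0.0014, edgeR), and LMF1, a lipase maturation factor, rose by 0.94 (adjusted p = 0.00989, edgeR).

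Among the membrane mucins, MUC1 (ENSG00000185499, chromosome 1, 155185824 to 155192916, minus strand) was the only well-read gene. Its counts were 90, 67 and 70 in controls and 172, 371 and 220 after knockdown. All knockdown libraries lay above all controls, but knockdown replicate 2 was far above the other two. The level was 4.85 ± 0.7 CPM in controls and 14.2 ± 7.46 CPM in knockdown libraries (SD, n = 3), and the fitted log2 difference was 1.54 (SE 0.36). Without knockdown replicate 2 it was 1.02, and 1.16 with both differing libraries left out. Of its 10 neighbours 9 were tested, and 2 were called in edgeR, both lower, where 25.1% of all tested genes were called lower. The median log2 fold change of the tested neighbours was -0.03. The neighbour SLC50A1 lay above the controls in all knockdown libraries, with no call (log2 fold change 0.37, adjusted p = 0.0703, edgeR). TRIM46, the nearest tested neighbour of MUC1 on the lower-coordinate side, had 97, 85 and 56 counts in controls and 89, 93 and 95 after knockdown.

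MUC16 (ENSG00000181143, chromosome 19, 8848844 to 8981342, minus strand), the mucin that carries the ovarian cancer antigen and binds mesothelin, had 0, 2 and 0 counts in controls and 6, 12 and 4 after knockdown. The groups did not overlap, and the scaled ratio of summed counts was 9.2 (95% exact interval 2.26 to 80.7, counting error only). MUC4 (ENSG00000145113, chromosome 3, 195746765 to 195811973, minus strand), a partner of the receptor ERBB2, had 0, 1 and 0 counts in controls and 1 in each knockdown library. MUC13 (ENSG00000173702, chromosome 3, 124905442 to 124953819, minus strand), a mucin of intestinal epithelium, had none in controls and 1, 0 and 1 after knockdown. At this depth neither MUC4 nor MUC13 could be told from absent in either group, and no fold is given.

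Some neighbours of MUC13 and MUC4 were called, in a comparison that called 51.8% of all tested genes. Of 7 tested neighbours of MUC13, 5 rose and 1 fell, among them ZNF148, a zinc finger repressor, by 1.23 (adjusted p = 0.000998, edgeR) and HEG1, a mucin-like membrane receptor, by 0.78 (adjusted p = 0.000835, edgeR). Of 7 tested neighbours of MUC4, 3 were called in edgeR, all higher, with the transferrin receptor TFRC at 1.02 (adjusted p = 0.00132, edgeR). Over all 71 neighbours of the 9 genes, 39 were tested, 10 rose and 9 fell, 48.7% called in all, against 51.8% of the 12292 genes tested. With both differing libraries left out, 11 neighbours were higher and 17 lower of 39 tested. Calls rose over all genes in that setting, with 4576 higher and 4559 lower of 12415 tested.

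Per length the order of the 9 genes changed between groups. In controls MUC1 led with 1.97 ± 0.295 FPKM (reads scaled for gene length and library total, SD, n = 3), followed by CEACAM1 at 0.0944 ± 0.0098 and MSLN at 0.0716 ± 0.0469, which overlapped each other. The other 6 genes were below 0.01 FPKM on average. In knockdown libraries MUC1 led with 5.99 ± 2.87 FPKM and CEACAM6 came second with 2.02 ± 0.426. The lowest MUC1 library (3.76) lay above the highest CEACAM6 library (2.3), so these neighbours in the order did not overlap. CEACAM1 (0.207 ± 0.0349) and MSLN (0.198 ± 0.0748) followed and overlapped. In control libraries 25.4% of the genes of the table had a lower mean FPKM than CEACAM6, and in knockdown libraries 55.9% did. For MUC1 the shares were 57.3% and 71.3%.

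Of the 9 genes, 3 had enough reads for the edgeR test (CEACAM1, CEACAM6 and MUC1), and all 3 were called higher at an adjusted p of 0.05, where 26.7% of the 12292 tested genes were called higher and 25.1% lower. CEACAM1 was not called without control replicate 3 or without knockdown replicate 3. With no filter on low counts MUC16 was called as well. The knockdown libraries lay wholly above the controls in CEACAM1, CEACAM6, MUC1, MUC16 and MSLN, where 25.8% of all genes with a count did (31.3% of tested genes, with 30.2% wholly below). CEACAM6 reached the test only through its knockdown counts. The set was put together for its direction, so these counts are read no further.

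Many genes shared the pattern of CEACAM6 over the libraries. The tested genes with a symbol most like it, by Pearson's r of log2(CPM + 1) over the 6 libraries, were FHOD3 (0.999), an actin-nucleating formin, LHFPL3 (0.999), AHR (0.999), the receptor for dioxins and tryptophan metabolites, IFIT3 (0.999), an interferon-induced gene, and ALPK1 (0.999), a kinase that senses bacterial sugars. The 6 points fall into 2 groups, and 1267 genes had an r above 0.95. LHFPL3 was the nearest in level, with 0 counts in every control and 85, 83 and 59 after knockdown. AHR had 942, 869 and 943 counts in controls and 2925, 2590 and 2535 after knockdown.

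Related genes of the same families were mostly silent. Of 18 other CEACAM and pregnancy-specific glycoprotein genes, 12 had no count in any library, and CEACAM8, a granulocyte marker, was among them. CEACAM19, a distant member, was the only one tested and fell from 5.43 ± 0.424 to 3.56 ± 0.657 CPM (SD, n = 3; log2 fold change -0.61, adjusted p = 0.0246, edgeR). Leaving out control replicate 2, control replicate 3, knockdown replicate 1 or knockdown replicate 3 each ended that call, and its adjusted p ran from 0.000293 to 0.0837 over the alternatives. PSG1 and PSG9, glycoproteins of the placenta, stood at 0.106 ± 0.0343 and 0.0421 ± 0.0364 CPM in controls and 0.23 ± 0.223 and 0.218 ± 0.144 CPM in knockdown libraries, too low for the test.

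Of 17 other mucin genes 4 were tested and 1 rose (25% called, against 51.8% of all tested genes). The median log2 fold change was 1.37 against 0.003 over all tested genes. That median rests on 4 genes with low counts, of which MUC5B, MUC3A and MUC5AC were highest in knockdown replicate 2. MUC5B, a secreted gel-forming mucin of airways, had 12, 7 and 2 counts in controls and 23, 46 and 31 after knockdown (log2 fold change 2, SE 0.55, adjusted p = 0.0176, edgeR). Its call was lost without control replicate 2, without control replicate 3 and with limma on log2(FPKM + 1), and the adjusted p ran from 5.11e-05 to 0.059 over the alternatives. MUC5AC, the gastric mucin found in pancreatic precursor lesions, had 14, 20 and 11 counts in controls and 16, 73 and 30 after knockdown, with no call (adjusted p = 0.156, edgeR). It was called without knockdown replicate 1 (adjusted p = 0.0432), and without knockdown replicate 2 its log2 fold change was 0.26. OVGP1, the oviduct glycoprotein, stood at 1.03 ± 0.479 CPM in controls and 1.3 ± 0.0706 CPM after knockdown (SD, n = 3), not called in edgeR (adjusted p = 0.448).

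Mucin levels moved with 1 library. Of the 8 mucin genes with at least 20 counts in all, a limit set after the values were seen, 7 were highest in knockdown replicate 2, the library with 10.4% mitochondrial counts; the exception was OVGP1. MUC12 was 1.65 times, MUC5B 2.04 times, MUC1 2.27 times, MUC16 2.9 times, MUC3A 3.04 times, MUC5AC 3.8 times and MUC6 3.97 times as high there as in the mean of the other knockdown libraries. For MUC12 the order was a near tie, with 0.672 CPM there and 0.668 CPM in control replicate 2. Over the 12292 tested genes 27.6% were highest in that library, and the median of the same ratio was 0.997. CEACAM6, at 6.96 CPM there against 6.26 and 4.3 CPM, did not stand out in the same way. The part of this library's composition in the mucin values was not tested.

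**Figure D3:**
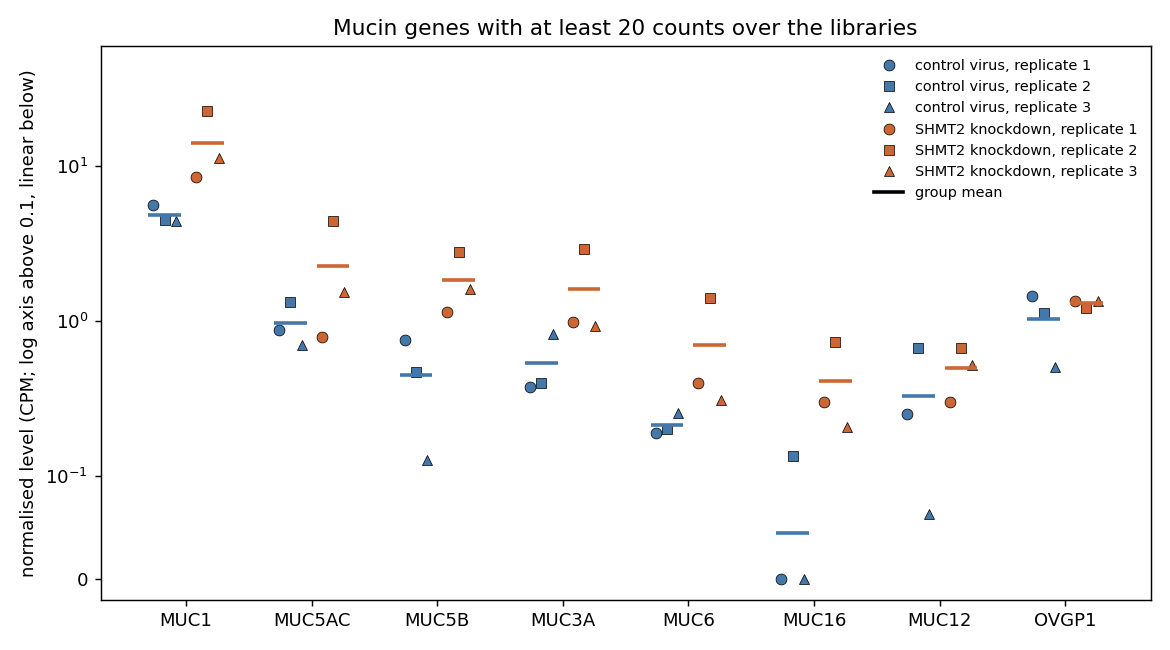
Normalised level (CPM, log axis above 0.1 and linear below) of the 8 mucin genes with at least 20 counts, with points for libraries and bars for group means. Knockdown replicate 2 (orange squares) is the highest point in every gene but OVGP1.

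Enzymes that build the sugar chains of mucins changed in both directions. Of 24 tested genes of mucin-type O-glycosylation 9 rose and 8 fell (70.8% called, against 51.8% of all tested genes), with a median log2 fold change of 0.16. GALNT5, which starts O-glycan chains, rose from 0.487 ± 0.256 to 9.51 ± 0.48 CPM (log2 fold change 4.25, adjusted p = 3.94e-05, edgeR). GALNT6, an enzyme of the same step known for acting on mucins in carcinomas, fell from 27.8 ± 1.77 to 9.2 ± 0.843 CPM. The sialyltransferases ST6GALNAC4 and ST3GAL1, which cap short O-glycans, fell from 44.3 ± 1.07 to 16.5 ± 0.408 CPM and from 72.1 ± 1.3 to 38.1 ± 1.76 CPM (SD, n = 3).

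Genes of GPI anchor assembly, the anchor used by CEACAM5, CEACAM6, CEACAM7 and mesothelin, were also divided. Of 29 tested genes 9 rose and 7 fell (55.2% called), and the median log2 fold change was 0.03. The count of higher genes was 5 without control replicate 2. PGAP1, which remodels the anchor after attachment, rose from 25.5 ± 5.36 to 56.9 ± 3.31 CPM, and PIGZ, which adds a side mannose, from 0.663 ± 0.0814 to 2.58 ± 0.57 CPM. PIGW, which acylates the anchor, fell from 31.1 ± 1.76 to 16.5 ± 1.05 CPM, and PIGS, a subunit of the complex that attaches proteins, from 88.1 ± 1.03 to 58.5 ± 4.27 CPM (SD, n = 3).

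Of 29 tested binding, signalling and shedding partners 13 rose and 6 fell (65.5% called, median 0.29). LGALS8, a galectin that binds cell surface glycans, rose from 34.3 ± 6.62 to 133 ± 15.7 CPM, and ICAM1, the adhesion ligand that binds MUC1, from 27.1 ± 1.56 to 72.8 ± 9.03 CPM. MMP14, a membrane protease that can shed MUC1, rose from 1.95 ± 0.202 to 7.39 ± 0.484 CPM, and the kinase LYN, which binds the MUC1 tail, from 25.9 ± 1.04 to 58.9 ± 7.14 CPM (SD, n = 3). The 6 that fell, named after their values were seen, were EZR, ERBB2, FLNA, CTNNB1, GRB2 and EGFR. Ezrin (EZR), which ties membrane proteins to actin, fell from 1059 ± 42.1 to 564 ± 41.1 CPM, and the MUC4 partner ERBB2 from 44 ± 1.42 to 26.0 ± 2.62 CPM.

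Other surface antigens of epithelial tumours changed in both directions. Of 25 tested, 8 rose and 8 fell (64% called), with a median log2 fold change of 0.04. With both differing libraries left out 13 were higher and 11 lower of 27 tested, where 4576 and 4559 of 12415 tested genes were. CD24, a heavily glycosylated GPI-anchored antigen, fell from 138 ± 4.23 to 15.4 ± 1.52 CPM (log2 fold change -3.16, adjusted p = 3.06e-06, edgeR). LRRC15 fell from 12.5 ± 1.2 to 0.757 ± 0.121 CPM and GPC1, a GPI-anchored proteoglycan raised in pancreatic cancer, from 88.3 ± 2.25 to 33.5 ± 0.946 CPM. ROR1, a receptor of WNT5A, rose from 15.4 ± 0.529 to 71 ± 9.95 CPM (SD, n = 3). Ranked by mean FPKM among these 45 antigens and the 9 genes of the set, CEACAM6 was 40th in controls and 18th after knockdown, and MUC1 was 19th and 13th. TM4SF1, CD44 and EPHA2 held the top 3 places in both groups.

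**Figure D4:**
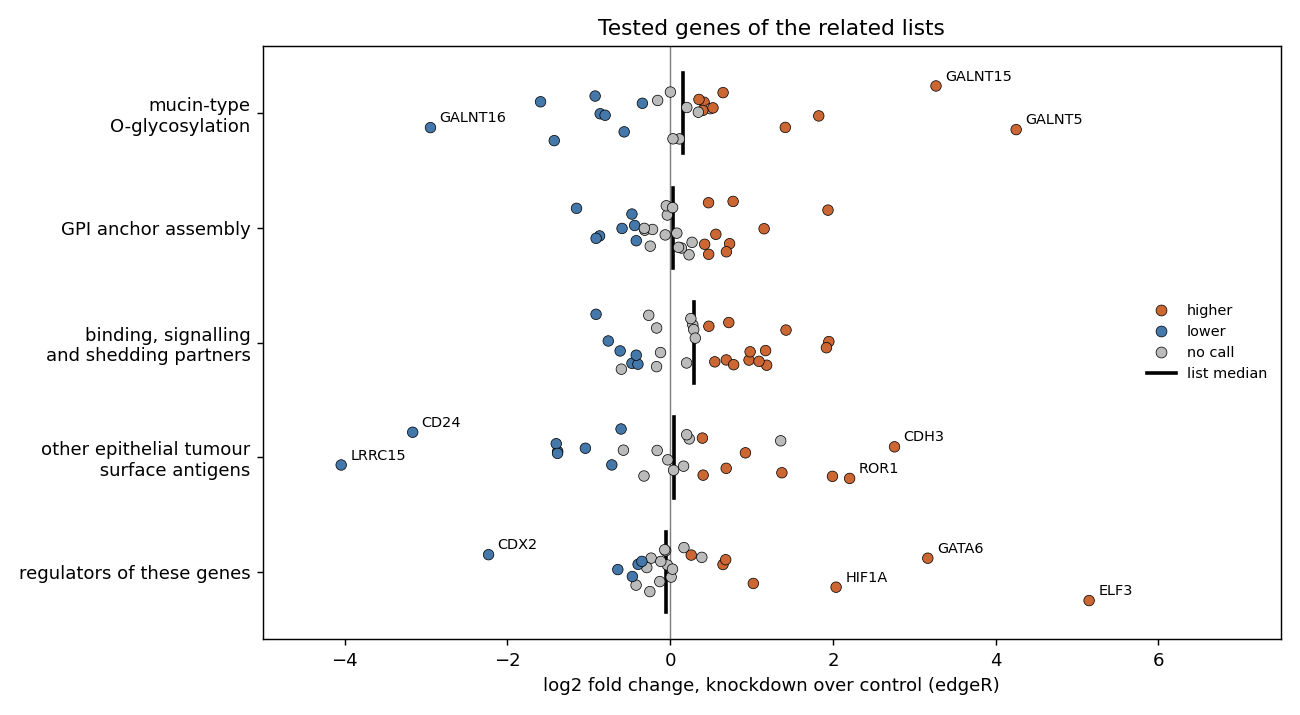
Log2 fold change, knockdown over control, of each tested gene in 5 related lists, coloured by its edgeR call at an adjusted p of 0.05, with a bar at each list's median. Names mark genes that changed by more than 2. Every list holds calls in both directions, and the medians lie between -0.06 and 0.29.

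Of 25 tested genes on a list of possible regulators, mostly transcription factors, 7 rose and 5 fell (48% called, median -0.06). ELF3, an ETS factor of epithelia, rose from 0.361 ± 0.187 to 13.1 ± 1.97 CPM (log2 fold change 5.15, adjusted p = 1.82e-05, edgeR). HIF1A, the hypoxia factor, rose from 69.7 ± 17.5 to 287 ± 69 CPM (SD, n = 3). The count of lower regulators was not steady: it was 2 when control replicate 2, control replicate 3 or knockdown replicate 1 was left out. It was 3 without knockdown replicate 3. With both differing libraries left out it was 10 of 25, where 4559 of 12415 tested genes were lower. The list was put together from general knowledge, and no link from a factor to a gene was measured.

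Markers of other cells that carry these antigens were measured beside them. The summed level of 11 granulocyte markers, cells that carry CEACAM6, ran from 0.334 to 0.569 CPM in controls and from 0.828 to 1.71 CPM after knockdown, and 8 of the 11, MPO, CSF3R, FCGR3B and CEACAM8 among them, had no count. The rest were too low for the test. ITGAM had 5, 5 and 6 counts in controls and 18, 21 and 10 after knockdown. ELANE had 1, 0 and 2, then 5, 4 and 5, and PTPRC had 0, 0 and 1, then 0, 3 and 1. Of 22 markers of classical gastrointestinal epithelium the sum ran from 247 to 285 and from 240 to 281 CPM, nearly all of it AGR2 (262 ± 18.6 and 262 ± 21.5 CPM), and LYZ, REG4 and ST6GALNAC1 had no count. Among those too low for the test, TSPAN8, also on the surface antigen list, had 0 counts in each control and 22, 6 and 31 after knockdown. S100P had 2, 2 and 1, then 12, 0 and 23. VSIG2 (5, 11 and 14, then 5, 4 and 3) and TFF3 (5, 5 and 4, then 5, 2 and 4) lay wholly below the controls in CPM. The intestinal factor CDX2 fell from 1.54 ± 0.176 to 0.323 ± 0.151 CPM. LGALS4, an intestinal galectin, was called higher (0.537 ± 0.085 and 1.11 ± 0.346 CPM), but not in 10 of 16 alternatives.

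Of 9 tested genes on the duct list 3 rose and 3 fell (66.7% called, against 51.8% of all tested genes). Among those that fell was VIM, the mesenchymal gene of that list. The duct keratin KRT19 had 69.7 ± 12.9 CPM after knockdown against 0.152 ± 0.137, the epithelial cadherin CDH1 rose from 0.937 ± 0.455 to 3.97 ± 1.06 CPM and KRT8 to 1410 ± 90.7 CPM, whereas EPCAM, VIM and SOX9 fell (SOX9 not in 6 of 17 alternatives). Mesothelial markers, cells that carry mesothelin, summed to 9.61 to 10.9 CPM in controls and 9.78 to 12.2 CPM after knockdown, with ITLN1 at 0. Of its 4 tested members WT1 fell (-0.46, call lost in 7 of 17 alternatives) and PKHD1L1 rose from 0 counts to 35, 30 and 37. CALB2 and UPK3B lay above the controls in all knockdown libraries, with no call. WT1 was the largest part of the mesothelial sum (7.5 ± 0.479 and 5.44 ± 0.545 CPM). Fibroblast markers summed to 83.2 to 97.4 and 48.9 to 53.1 CPM, where COL3A1 rose and COL1A1 and THY1 fell (THY1 not in 4 of 17 alternatives), with DCN, FAP and COL1A2 at 0. Most of the fibroblast sum was COL1A1 (83.8 ± 7.16 and 44.3 ± 2.77 CPM). Endothelial markers summed to 19.1 to 26.6 and 17.5 to 23.2 CPM, where KDR rose and ESAM fell, with ERG and EMCN at 0. Lymphoid and macrophage markers summed to 2.64 to 3.92 and 3.54 to 4.04 CPM, where CD14 rose (not in 4 of 17 alternatives), with LYZ and MS4A1 among those at 0, and acinar markers to at most 0.414 CPM, with 6 of 10 at 0. CDX2, SOX9 and WT1 are also on the list of possible regulators. The part of these markers in the CEACAM6 and mucin values was not tested.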

How the data were processed

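RNA of 6 PANC-1 libraries, grouped by sample title, was extracted with TRIzol and made into libraries with the NEBNext Ultra II kit, per the labels' protocols. How reads were aligned and counted, and on which build, is not given in the sources used here. Per the file headers, the table deposited by the authors holds read counts and FPKM values for 20036 Ensembl genes. The counts, lengths and column totals give the FPKM back. Of 19852 identifiers found in GENCODE 29, 79% shared a start or end with GRCh38, and gene positions are the table's own.

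Counts were filtered with filterByExpr (12292 genes left), scaled with TMM factors and tested with edgeR 4.0.16 in R 4.3.3 (quasi-likelihood, no covariate, Benjamini-Hochberg over all tested genes, threshold 0.05). The test was tried on simulated data. Alternatives were other scalings, filters and tests (DESeq2 1.42.0, limma 3.58.1 with voom or on log2 FPKM), the replicate block and left-out libraries, 17 in all. Floors of 3 counts and 95% intervals cover counting error only. Each SE of a log2 fold change is that change divided by the square root of the test's F statistic. Genes and lists were chosen with earlier results of these data known. Each list names up to 4 called genes of at least 1 CPM by adjusted p, or else the 2 of highest mean, each marker list its called genes, CEACAM6 the 5 genes of highest correlation, and neighbours are 5 genes on each side. Other genes were named after their values were seen. The values of some genes are not reported here.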

Additional observations from a re-analysis of the deposited data

How the results depend on the processing

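The fitted log2 fold change of CEACAM6 was 7.66. Its direction was fixed by the selection of the gene on these counts, and its size depends on how 1 control count is treated. It was 6.95 with limma-voom, 4.30 with limma on log2(FPKM + 0.1), 1.58 with limma on log2(FPKM + 1), whose pseudocount is large beside the level of the gene, and 7.07 with both differing libraries (control replicate 1, knockdown replicate 2) left out. It ran from 7.19 to 9.66 when each library was left out in turn. CEACAM1 changed by 0.65 and 0.14 in the FPKM fits with pseudocounts 0.1 and 1, against 1.04. Counts over all genes, 3284 higher and 3088 lower, ran from 2440 to 3504 and from 2308 to 3465 with a library left out, and from 2834 to 4576 and from 2491 to 4559 under the other alternatives, highest with both differing libraries left out.

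Of 272 list counts under alternatives 20 moved by over 1.5 times. Higher mucins, 1 as reported, were 2 by library size alone and with DESeq2, 0 with limma on log2(FPKM + 1), and 0 to 3 with a library left out. The lower CEACAM and PSG count of 1 became 0 without each of 4 libraries. Of 38 called genes named from the lists 31 kept call and direction in every alternative that tested them, and none reversed. The labels do not say whether the replicate numbers pair the libraries. Deviations of same-numbered libraries correlated at -0.39, -0.374 and 0.407, and the libraries did not all correlate best with their own number. These values cannot decide on pairing, because 1 library of each group stood apart from its fellows and dominates the deviations. With the replicate block 2834 genes were higher and 2610 lower, CEACAM6 changed by 7.66 and MUC1 by 1.43, lower regulators fell from 5 to 3, and the calls of SOX9, LGALS4 and WT1 were lost. Depth limits CEACAM5, CEACAM7, MUC4 and MUC13, which had at most 5 counts over a group.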
